A study of Homo sapiens with 21 samples.

Results

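The 10 genes described here, DUSP1, DUSP4, DUSP5, DUSP6, DUSP10, SPRY2, SPRY4, SPRED1, SPRED2 and PHLDA1, were taken by their symbols from the 19683 gene symbols of a count table, by a rule that names the genes and sets no threshold on a value. All 10 were found in the table and all 10 had enough counts to be tested. The table was made by TempO-Seq, which reads each transcript through a pair of short oligos that are joined where they meet on it, from HepG2/C3A, an epithelial-like human liver cell line derived from a hepatoma. The spheroids were collected on Days 3, 7, 10, 14, 21 and 28 and were set against a 2D monolayer of the same cells, with 3 libraries in each of the 7 groups. All cells carried the genotype label WT and grew in MEM with FBS, non-essential amino acids and Antibiotic-Antimycotic. Spheroids were made by forcing monolayer cells together in SP5D ultra-low attachment plates, and they were then held in a ClinoReactor, so culture form, vessel and time in culture differ together between spheroids and monolayer. The design uses 1 cell line, and the monolayer has no time series of its own.

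ERK kinases carry signals from growth factor receptors through RAS, RAF and MEK to the nucleus, where they switch on genes that then restrain the pathway. Dual specificity phosphatases (DUSPs) remove phosphate from MAP kinases, Sprouty and SPRED proteins act upstream at the level of receptors, RAS and RAF, and most of these genes are themselves transcribed in response to ERK activity. Their transcripts are therefore widely read as feedback genes of the pathway. In liver cells the pathway is driven by ligands of the EGF, FGF and HGF receptors.

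In bulk RNA a change in the number of cells that transcribe a gene and a change in RNA per cell cannot be told apart. Libraries held 18760232 to 43443262 counts, with the lowest total in Day 28 replicate 1, and no pair of replicates was close enough to be 1 library deposited again. Replicates carry the label biological with no word on whether cultures were separate, so a p-value here reflects library-to-library spread that may be technical. Levels are CPM, counts scaled by library size and TMM factor, and fold changes and Benjamini-Hochberg adjusted p-values over all 12345 genes tested come from 1 edgeR quasi-likelihood fit. A gene was called at an adjusted p under 0.05. A level also depends on the detector oligos of its gene, so levels are compared between libraries and not between genes. The liver markers ALB, AFP, APOA1, APOB, TTR, TF and HNF4A were all detected and all 7 were higher in spheroids on each of the 6 days. Over all genes tested, 27.3% were called higher on all 6 days. APOA1, for example, averaged 4845 CPM at Day 3 and 3954 CPM at Day 28, against 621 CPM in the monolayer. Of 11 markers of fibroblasts, endothelial cells and leukocytes, COL1A1, COL1A2, DCN, PTPRC and CD163 were at 0 in every library. Of the 3 tested, CD14 and PDGFRB were called higher at Day 3, and CD14, PDGFRB and VWF at Day 28, and none was lower. The shares called higher over all genes tested were 40.1% at Day 3 and 38.5% at Day 28. All 3 markers passed the filter on low counts through spheroid libraries alone, with at most 7 counts in a monolayer library. They could therefore scarcely be called anything but higher. CD14 averaged 2.02 CPM at Day 3 and 4.04 CPM at Day 28, against 0.120 CPM in the monolayer. PDGFRB averaged 0.782 CPM at Day 3, against 0.0735 CPM, and VWF 0.588 CPM at Day 28, against 0.0217 CPM. The summed level of those 11 markers was 2.78 to 7.08 CPM in spheroid libraries, against 0.195 to 0.331 CPM in monolayer libraries.

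Promoter windows of 250 bases that end just before a RefSeq start on GRCh38.p14 were read for 8 of the 10 genes, in 12 entries. No window of DUSP4 or DUSP5 was read, so nothing said here of motifs covers them. They were searched on both strands for the cyclic AMP response element (CRE, TGACGTCA), the CRE core TGACG that is part of it, the AP-1 motif TGANTCA, the ETS motif CCGGAAG, the TATA box (TATAAA) and the CArG box. DUSP1 was the one gene of the 8 with a full CRE, which 1.65% of all 35116 windows held. A CRE core was found in 1 window each of DUSP1, SPRY2 and SPRY4, among the 12 windows read, and 21.2% of all windows held one. AP-1, ETS and CArG motifs, present in 6.57%, 8.52% and 1.16% of all windows, were not found in the 12 entries. Not all of these windows are free of transcribed sequence: those of DUSP6, SPRED1 and PHLDA1 lie wholly within exons that GENCODE 29 annotates. That of SPRY4 holds 170 such bases, and 1 window each of DUSP10 and SPRED2 holds 87 and 38. A missing match therefore says nothing of sequence further upstream. The windows of DUSP1 at chr5:172771196-172771445 and of SPRY2 at chr13:80341127-80341376, both read on the minus strand, are printed 5′ to 3′. They are shown because DUSP1 had the full CRE and a large fall in spheroids, while SPRY2 was the gene whose spheroid and monolayer libraries overlapped, and because neither window touches an annotated exon. Capitals mark the motif matches.
DUSP1: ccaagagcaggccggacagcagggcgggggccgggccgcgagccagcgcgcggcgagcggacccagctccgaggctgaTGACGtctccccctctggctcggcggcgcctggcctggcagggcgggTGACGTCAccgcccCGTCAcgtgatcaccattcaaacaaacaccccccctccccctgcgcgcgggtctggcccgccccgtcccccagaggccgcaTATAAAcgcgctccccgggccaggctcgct
SPRY2: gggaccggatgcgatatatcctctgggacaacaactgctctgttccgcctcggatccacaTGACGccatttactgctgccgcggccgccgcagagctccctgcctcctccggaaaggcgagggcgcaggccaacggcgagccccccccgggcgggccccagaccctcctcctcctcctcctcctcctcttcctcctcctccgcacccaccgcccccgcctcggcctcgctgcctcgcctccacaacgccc
In DUSP1 the CRE starts 125 bases before the start of transcription, and CRE cores begin at 172, 125, 122 and 111 bases, of which those at 125 and 122 lie within the full CRE. The TATA box, which 10.7% of all windows held, begins 30 bases before the DUSP1 start. The single CRE core of SPRY2 begins 190 bases before the start that the printed window ends at. SPRY2 had 3 windows in all, and those not printed held none of the motifs searched for. These matches describe letters only, and no binding was measured in these samples.

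Against the monolayer, 9 of the 10 genes were lower at Day 3 and none was higher, where 37.8% of all genes tested were called lower. At Day 7 all 10 were lower, beside 38.4% of all genes. Then 9 were lower at Day 10 (37.9% of all genes), 9 at Day 14 (35.7%) and 9 at Day 21 (35.1%), while Day 28 had 8 (34.8%). No gene of the 10 was called higher on any day by edgeR, where 40.1%, 40.4%, 40%, 38.7%, 39.3% and 38.5% of all genes tested were called higher on the 6 days in turn. SPRY2 was the gene not called on the days with 9, and SPRY2 and SPRED1 were not called at Day 28. The median log2 fold change of the 10 genes was -2.40 at Day 3 and -1.99 at Day 28, beside 0.06 and 0.08 over all genes tested. In 9 genes all 18 spheroid libraries lay below all 3 monolayer libraries, a pattern shown by 26.6% of all genes tested, and 8 were called lower on all 6 days, as were 25.7%. None had all spheroid libraries above the monolayer, as 26.2% of all genes did, and none was called higher on all 6 days, as 27.3% were.

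**Figure D1:**
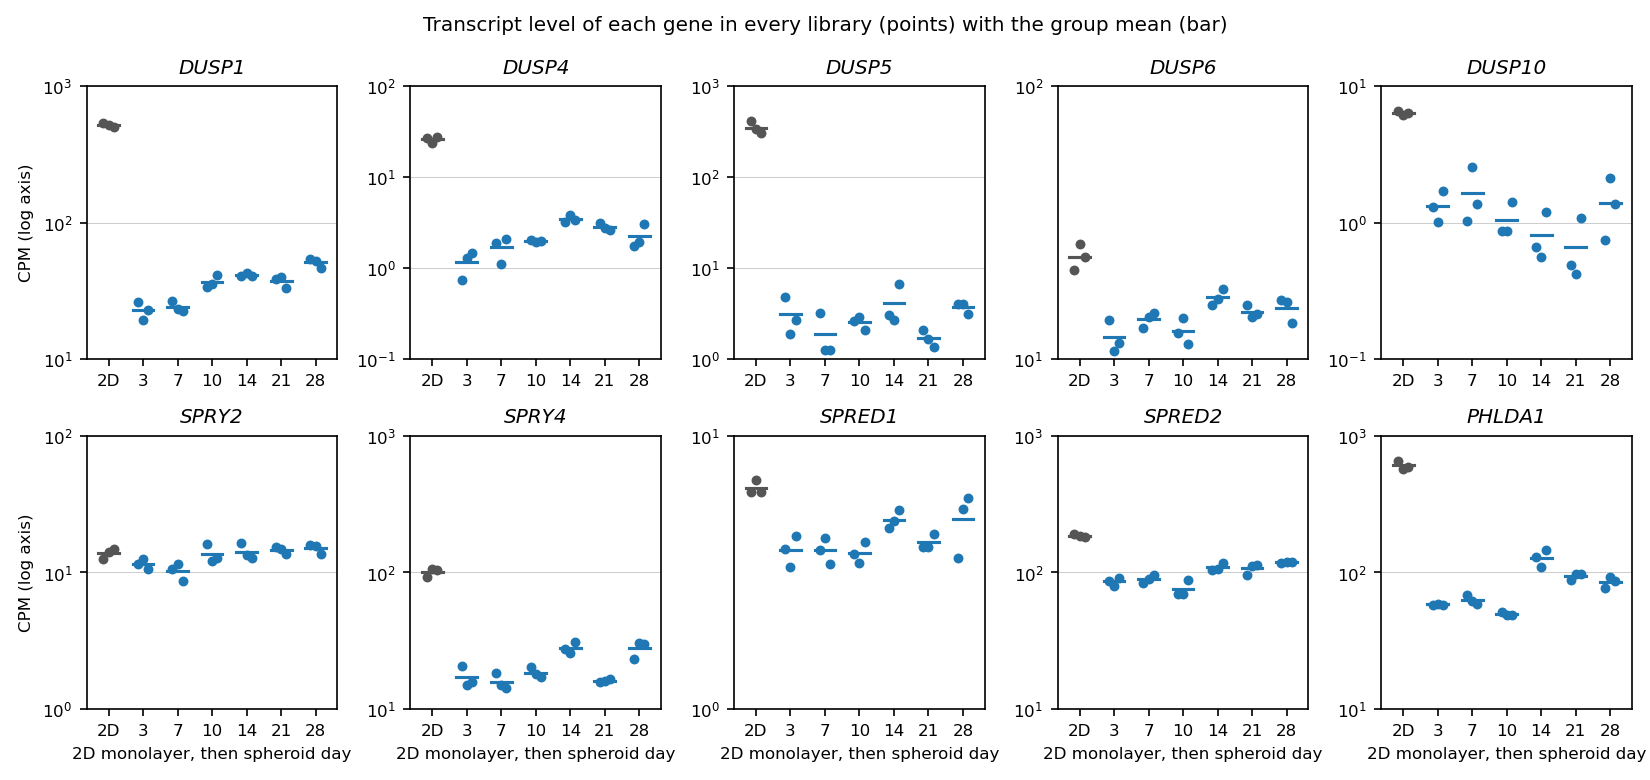
Level of each gene in CPM (log axis) in every library, with the 2D monolayer at the left and spheroid days 3 to 28 after it; points are libraries and bars are means of 3. Monolayer libraries stand above all spheroid libraries in 9 panels, by the most in DUSP5, and overlap them in SPRY2.

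DUSP5, at chr10:110497838-110511544 on the plus strand (GENCODE 29, GRCh38, the source of all gene positions given), encodes a nuclear phosphatase that acts on ERK and anchors it in the nucleus. It had the largest fall of the 10 genes on every day. Its level was 4.82, 1.90 and 2.73 CPM in Day 3 spheroids and 4.06, 4.06 and 3.14 CPM in Day 28 spheroids, against 410, 333 and 307 CPM in the monolayer libraries. The 18 spheroid libraries spanned 1.25 to 6.64 CPM, with 43 to 199 counts each, and did not approach the lowest monolayer library. The fold change at Day 3 was 107-fold lower, or -6.74 ± 0.36 (SE) on the log2 scale, and at Day 28 it was 93.1-fold lower, or -6.54 ± 0.36. Both were called in edgeR, with adjusted p = 6.78e-11 at Day 3 and 1.37e-10 at Day 28. The lowest mean, 1.72 ± 0.36 CPM at Day 21 (SD, n = 3), was 0.490% of the monolayer mean.

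DUSP1 (chr5:172768090-172771195, minus strand) encodes an immediate early phosphatase that acts on p38 and JNK as well as ERK. It stood at 26.1, 19.4 and 22.9 CPM in Day 3 spheroids, against 538, 515 and 503 CPM in monolayer libraries. At Day 28 its libraries read 54.0, 52.7 and 46.9 CPM, so they lay above each Day 3 library and still far below the monolayer. The log2 fold change was -4.50 ± 0.10 at Day 3, a 22.7-fold fall, and -3.34 ± 0.09 at Day 28, a 10.1-fold fall, with edgeR adjusted p = 1.68e-27 and 1.09e-24.

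DUSP4, a gene for a nuclear phosphatase induced by ERK (chr8:29333064-29350668, minus strand), also fell on every day. Its libraries held 0.746, 1.28 and 1.45 CPM at Day 3 and 1.76, 1.96 and 3.07 CPM at Day 28, against 26.9, 23.5 and 27.4 CPM in the monolayer. These spheroid values rest on few counts, with 30 to 110 per library over the 18. The log2 fold change was -4.51 ± 0.23 at Day 3 (22.8-fold lower, edgeR adjusted p = 2.70e-18) and -3.51 ± 0.22 at Day 28 (11.4-fold lower, edgeR adjusted p = 6.01e-16).

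DUSP6 (chr12:89347232-89353271, minus strand), whose product is a cytoplasmic phosphatase with a strong preference for ERK, changed far less. It read 13.9, 10.7 and 11.5 CPM at Day 3 and 16.5, 16.2 and 13.6 CPM at Day 28, against 21.2, 26.4 and 23.6 CPM in the monolayer. No spheroid library reached the lowest monolayer library, and the group mean was 50.8% of the monolayer mean at Day 3 and 65.1% at Day 28. Its log2 fold change was -0.98 ± 0.12 at Day 3 and -0.62 ± 0.12 at Day 28 (edgeR adjusted p = 5.73e-09 and 2.01e-05).

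DUSP10 (chr1:221701424-221742176, minus strand) encodes a phosphatase that prefers p38 and JNK over ERK. It read 1.29, 1.00 and 1.70 CPM at Day 3 and 0.747, 2.11 and 1.36 CPM at Day 28, against 6.61, 6.18 and 6.31 CPM in the monolayer. It fell to 20.9% of the monolayer mean at Day 3 and to 10.4% at Day 21. The spheroid libraries held as few as 14 counts of DUSP10 and spread widely within a day, with 1.02 to 2.56 CPM at Day 7. Its log2 fold change was -2.26 ± 0.36 at Day 3 and -2.13 ± 0.36 at Day 28, with edgeR adjusted p = 1.06e-06 and 3.55e-06.

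The adaptor-level inhibitors differed from one another. SPRY4 (chr5:142310427-142326455, minus strand), a Sprouty gene whose protein dampens receptor tyrosine kinase signals to RAS, read 20.6, 15.1 and 15.9 CPM at Day 3 and 23.3, 30.2 and 29.8 CPM at Day 28, against 92.4, 106 and 104 CPM in the monolayer. The groups did not overlap, and Day 28 libraries all lay above Day 3 libraries. Its log2 fold change was -2.55 ± 0.12 at Day 3 and -1.86 ± 0.11 at Day 28, a 5.85-fold and a 3.62-fold fall (edgeR adjusted p = 2.77e-19 and 8.77e-16).

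SPRY2 (chr13:80335976-80340951, minus strand), its close relative, stood at 11.6, 12.6 and 10.6 CPM at Day 3 and 15.9, 15.7 and 13.7 CPM at Day 28, against 12.6, 14.0 and 14.7 CPM in the monolayer. Spheroid and monolayer libraries overlapped on both days. The log2 difference was -0.25 ± 0.13 at Day 3, with a 95% interval of -0.51 to 0.00, and 0.13 ± 0.13 at Day 28, with an interval of -0.13 to 0.38. Neither passed the threshold in edgeR, with adjusted p = 0.0780 at Day 3 and 0.384 at Day 28. At Day 7 its libraries read 10.7, 11.4 and 8.67 CPM, all below the monolayer, and the log2 fold change of -0.43 ± 0.13 was called (edgeR adjusted p = 0.00350). With libraries scaled by total counts alone, the Day 7 call was lost at -0.26 (edgeR adjusted p = 0.0667) and SPRY2 was called higher at Day 28, at 0.34 (edgeR adjusted p = 0.0206).

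SPRED2 (chr2:65310851-65432637, minus strand) encodes a membrane-bound relative of the Sproutys that brings neurofibromin to RAS. It read 86.7, 80.2 and 91.6 CPM at Day 3 and 117, 119 and 120 CPM at Day 28, against 192, 184 and 180 CPM in the monolayer. Both spheroid groups lay wholly below the monolayer, with 46.4% and 63.9% of its mean. The log2 fold change was -1.11 ± 0.08 at Day 3 and -0.65 ± 0.08 at Day 28 (edgeR adjusted p = 2.32e-14 and 8.26e-09).

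SPRED1 (chr15:38252326-38357249, plus strand), whose protein acts on RAS in the same way, read 3.85, 3.32 and 4.29 CPM at Day 3 and 3.58, 5.38 and 5.90 CPM at Day 28, against 6.23, 6.90 and 6.21 CPM in the monolayer. Its log2 fold change at Day 3 was -0.76 ± 0.18 (edgeR adjusted p = 0.000334). At Day 28 it was -0.37 ± 0.18 with a 95% interval of -0.72 to -0.02, and it missed the threshold (edgeR adjusted p = 0.0643), though no library overlapped the monolayer. The Day 28 difference was called without Day 28 replicate 3 (edgeR adjusted p = 0.0366), in DESeq2 (adjusted p = 0.0451) and in limma (adjusted p = 0.0444). The Day 14 call, at -0.39 ± 0.18 and edgeR adjusted p = 0.0491, was lost in 16 of 21 fits that left out 1 library, where the adjusted p ran from 0.0283 to 0.168.

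PHLDA1 (chr12:76025447-76033932, minus strand) encodes a pleckstrin homology-like protein, and its transcript is induced by growth factors. It read 57.9, 59.0 and 57.9 CPM at Day 3 and 77.2, 93.1 and 86.1 CPM at Day 28, against 652, 572 and 596 CPM in the monolayer. The Day 3 libraries agreed closely, with an SD of 0.641 CPM. Its log2 fold change was -3.38 ± 0.09 at Day 3, a 10.4-fold fall, and -2.83 ± 0.09 at Day 28, a 7.09-fold fall (edgeR adjusted p = 1.45e-25 and 1.39e-23).

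**Figure D2:**
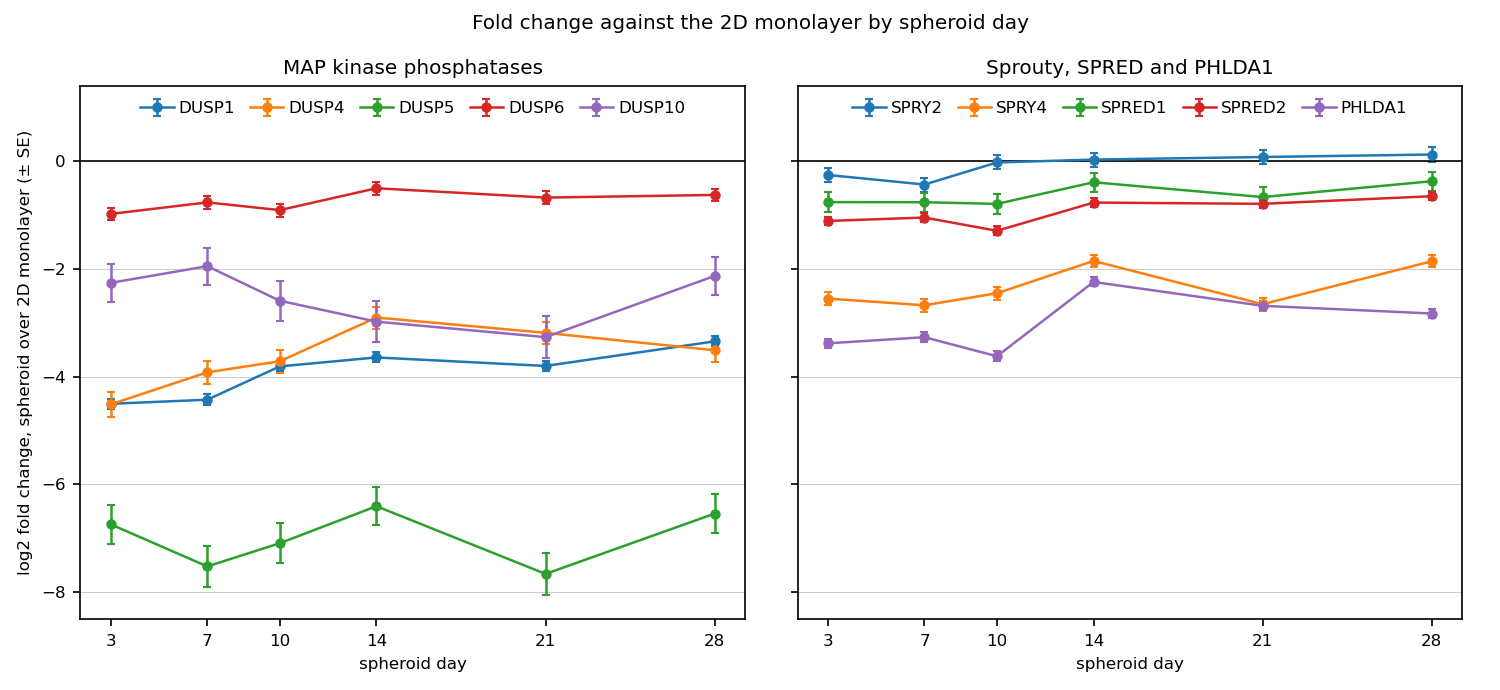
Log2 fold change of each gene over the 2D monolayer (y axis, edgeR, error bars ± SE) by spheroid day (x axis), phosphatases at the left and the other genes at the right. DUSP5 lies below -6 on all days, SPRY2 stays between -0.43 and 0.13, and PHLDA1 moves up from Day 10 to Day 14.

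Among the spheroid days themselves, 8 of the 10 genes changed by the edgeR F test, where 76.2% of all genes tested did. The exceptions were DUSP5 (adjusted p = 0.0803) and SPRED1 (adjusted p = 0.0910). DUSP5 was called in DESeq2 (adjusted p = 0.0228), in limma (adjusted p = 0.0276), in edgeR with the spheroid libraries alone (adjusted p = 0.0301) and without Day 7 replicate 1 (edgeR adjusted p = 0.0170). SPRED1 was called without Day 28 replicate 1 (edgeR adjusted p = 0.0141). DUSP10 passed at adjusted p = 0.0231 in edgeR and did not pass without Day 7 replicate 2, Day 21 replicate 1 or Day 21 replicate 2, where the adjusted p reached 0.0791, or with the spheroid libraries alone (edgeR adjusted p = 0.0557).

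Between Days 7 and 3 none of the 10 genes was called by edgeR, where 8.76% of all genes were called lower and 10.6% higher. Without Day 7 replicate 2, DUSP4 was called higher at Day 7 (log2 0.84, edgeR adjusted p = 0.0225). Day 10 against Day 7 had 2 genes lower (background 13.5%), PHLDA1 at -0.35 ± 0.08 and SPRED2 at -0.25 ± 0.08, and 2 higher (13.9%), DUSP1 at 0.62 ± 0.09 and SPRY2 at 0.41 ± 0.13. The SPRED2 and SPRY2 calls were each lost when single libraries of Day 7 or Day 10 were left out, with adjusted p of up to 0.195 and 0.125 in edgeR. SPRY4 was called higher at Day 10 without Day 7 replicate 1 (log2 0.35, edgeR adjusted p = 0.0412).

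The interval with the most changes was Day 14 against Day 10, with 5 genes higher and none lower, where 24% of all genes were called higher and 24.3% lower. PHLDA1 read 130, 109 and 147 CPM at Day 14, against 51.2, 48.5 and 48.5 CPM at Day 10. Its groups lay far apart, and Day 14 was 2.60-fold higher, with a 95% interval of 1.21 to 1.55 for the log2 difference (edgeR adjusted p = 8.29e-15). DUSP4 rose by 0.81 ± 0.22, SPRY4 by 0.60 ± 0.12, SPRED2 by 0.52 ± 0.08 and DUSP6 by 0.41 ± 0.12 on the log2 scale, and in all 4 the Day 14 libraries lay above the Day 10 libraries. DUSP1 differed by 0.17 ± 0.09 (edgeR adjusted p = 0.126) and was called without Day 10 replicate 3 (edgeR adjusted p = 0.0276) and with scaling by total counts alone (0.22, edgeR adjusted p = 0.0372). SPRED1, at 0.40 ± 0.18 (edgeR adjusted p = 0.0700), was also called under that scaling (edgeR adjusted p = 0.0473).

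Day 21 against Day 14 had 2 genes lower and none higher, where 12.7% of all genes were lower and 13.9% higher. SPRY4 read 15.7, 15.96 and 16.5 CPM at Day 21, against 27.7, 25.6 and 30.7 CPM at Day 14, a log2 difference of -0.80 ± 0.12 (edgeR adjusted p = 2.97e-06). PHLDA1 differed by -0.44 ± 0.08. DUSP5 differed by -1.26 ± 0.45 and lay just outside the threshold (edgeR adjusted p = 0.0507), and it was called in 5 of 21 fits that left out 1 library, in DESeq2 (adjusted p = 0.0168) and in limma (adjusted p = 0.0314). At Day 28 against Day 21, 3 genes were higher and none lower, where 10% of all genes were higher and 14% lower. SPRY4 was higher by 0.80 ± 0.12, and so was DUSP1, by 0.46 ± 0.09. DUSP5 differed by 1.12 ± 0.46 and was not called in edgeR (adjusted p = 0.0982), while DESeq2 (adjusted p = 0.0376) and limma (adjusted p = 0.0389) called it. DUSP10 was called higher by 1.14 ± 0.41 (edgeR adjusted p = 0.0395), but its libraries overlapped. That call was lost without Day 21 replicate 1, Day 21 replicate 2, Day 28 replicate 2 or Day 28 replicate 3, with an edgeR adjusted p of up to 0.332, in limma (adjusted p = 0.0541) and with the libraries of these 2 days alone (edgeR adjusted p = 0.118).

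Over the whole spheroid course, 7 genes were higher at Day 28 than at Day 3 and none was lower, where 29.5% of all genes were higher and 30.2% lower. The log2 differences were 1.16 ± 0.09 for DUSP1, 1.00 ± 0.25 for DUSP4, 0.69 ± 0.12 for SPRY4, 0.55 ± 0.08 for PHLDA1, 0.46 ± 0.08 for SPRED2, 0.38 ± 0.13 for SPRY2 and 0.35 ± 0.12 for DUSP6. The DUSP6 call was lost without Day 3 replicate 2 (edgeR adjusted p = 0.0526). DUSP5 differed by 0.20 with a 95% interval of -0.62 to 1.02, DUSP10 by 0.13 with an interval of -0.62 to 0.87, and SPRED1 by 0.39 with an interval of 0.03 to 0.75 (edgeR adjusted p = 0.0689). SPRED1 was called without Day 3 replicate 3 (edgeR adjusted p = 0.0399), without Day 28 replicate 1 (edgeR adjusted p = 0.00956) and in DESeq2 (adjusted p = 0.0473).

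The order of the groups differed by gene. For DUSP1 the monolayer came first, then Day 28, Day 14, Day 21, Day 10, Day 7 and Day 3, and the pairs of neighbours whose libraries overlapped were Days 21 and 10 and Days 7 and 3. For PHLDA1, DUSP4, DUSP5, DUSP6 and SPRY4 the highest spheroid mean was that of Day 14, and among these its libraries lay above those of the next day in rank only in PHLDA1 and DUSP4. The lowest spheroid mean was at Day 3 for DUSP1, DUSP4 and DUSP6, at Day 7 for SPRY2 and SPRY4, at Day 10 for SPRED1, SPRED2 and PHLDA1, and at Day 21 for DUSP5 and DUSP10. For SPRY2 every neighbouring pair of groups overlapped.

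Other members of the phosphatase family did not all fall. Of 7 further DUSP genes tested, 5 were lower and 2 higher at Day 3 and again at Day 28, with a median log2 fold change of -0.64 and -0.42. For this list and those below, the shares over all genes tested were 37.8% lower and 40.1% higher at Day 3. At Day 28 they were 34.8% lower and 38.5% higher. DUSP9, a cytoplasmic ERK phosphatase of the same subfamily as DUSP6, read 96.3, 86.9 and 92.7 CPM at Day 3 and 79.6, 83.4 and 78.1 CPM at Day 28, against 12.1, 11.8 and 11.7 CPM in the monolayer. Its groups lay far apart in the direction opposite to DUSP6. The log2 fold change was 2.96 ± 0.08 at Day 3 and 2.76 ± 0.08 at Day 28, a 7.77-fold and a 6.79-fold rise (edgeR adjusted p = 8.35e-26 and 1.07e-24). DUSP14 was the other gene that rose, by 0.28 ± 0.11 at Day 3 and 0.44 ± 0.11 at Day 28. DUSP8, a phosphatase of JNK and p38, fell by 2.85 ± 0.16 at Day 3 and by 4.01 ± 0.18 at Day 28 on the log2 scale, and DUSP3, whose product acts on ERK and JNK, averaged 254 CPM at Day 3 and 182 CPM at Day 28, against 515 CPM in the monolayer. DUSP2 was at 0 in every library.

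**Figure D3:**
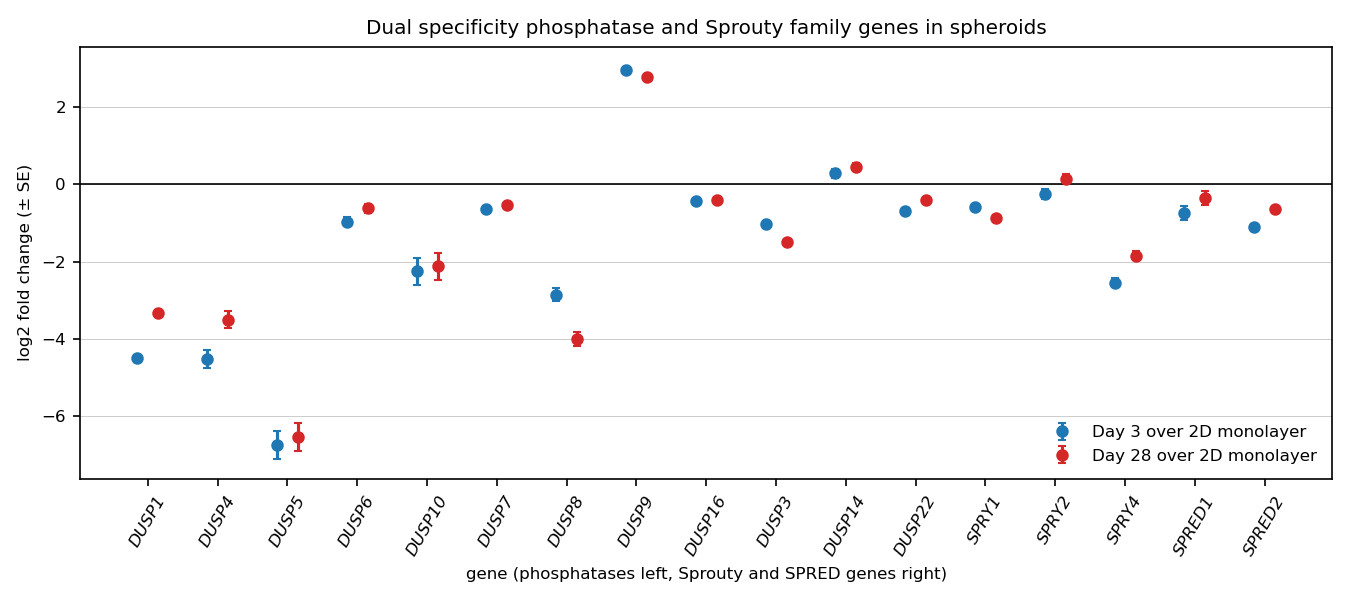
Log2 fold change over the 2D monolayer (y axis, edgeR, error bars ± SE) of the tested DUSP, Sprouty and SPRED genes (x axis) at Day 3 (blue) and Day 28 (red). DUSP9 lies at 2.96 and 2.76, while DUSP5, DUSP1, DUSP4 and DUSP8 lie far below 0.

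Of 5 other feedback and family genes tested, 4 were lower at Day 3 and all 5 at Day 28, and none was higher. IL17RD and PHLDA2 are among these, with at most 6 and 7 counts in a spheroid library. Both passed the filter on low counts through their monolayer libraries alone, so they could scarcely be called anything but lower. ERRFI1, which binds and inhibits EGF receptor family kinases, averaged 1518 CPM at Day 3 and 2049 CPM at Day 28, against 4940 CPM in the monolayer. SPRY1 averaged 51.5 ± 1.9 CPM at Day 3 and 42.1 ± 6.6 CPM at Day 28, against 78.2 ± 8.3 CPM in the monolayer (SD, n = 3 each). IL17RD, a membrane inhibitor of FGF signals to ERK, averaged 0.143 CPM at Day 3 and 0.0938 CPM at Day 28, against 1.09 CPM in the monolayer, and PHLDA2 was near the detection limit in spheroids, at 0.0633 and 0.0682 CPM, against 1.17 CPM.

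Among the ligands of the EGF receptor family, 3 of 5 tested were lower and 1 higher at Day 3, and 4 were lower and none higher at Day 28. Their median log2 fold change was -5.31 at Day 3 and -4.73 at Day 28, beside 0.06 and 0.08 over all genes tested. AREG fell to 27.6, 14.4 and 12.97 CPM at Day 3 and 19.6, 18.6 and 18.2 CPM at Day 28, against 2302, 2619 and 2600 CPM in the monolayer. EREG averaged 0.348 CPM at Day 3 and 0.214 CPM at Day 28, against 27.8 CPM. TGFA was higher at Day 3, at 2.98 CPM against 1.45 CPM, and lower at Day 28, at 0.871 CPM (log2 fold change 1.05 ± 0.31 and -0.76 ± 0.35). EGF, at -1.18 ± 0.84 and -0.43 ± 0.81, was called on neither day (edgeR adjusted p = 0.202 and 0.645).

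Of 9 growth factor receptors tested, 5 were higher and 4 lower on each of these days, beside 40.1% and 37.8% of all genes at Day 3 and 38.5% and 34.8% at Day 28. FGFR4, the main FGF receptor of hepatocytes, averaged 106 CPM at Day 3 and 79.7 CPM at Day 28, against 26.3 CPM in the monolayer. ERBB3 averaged 148 and 186 CPM, against 46.3 CPM. MET, the HGF receptor, averaged 64.8 and 82.8 CPM, against 238 CPM. EGFR itself was scarcely detected, with 1 count over the Day 3 libraries and 0 over the Day 28 libraries, against 13 to 41 counts in each monolayer library, so no fold change is given. EGFR passed the filter on low counts through the monolayer libraries alone, so its place among the lower genes was nearly fixed in advance.

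Adaptor, RAS and kinase genes of the steps from receptor to ERK were called in both directions, and so were p38 and JNK pathway genes. Of 12 adaptor and RAS genes, 6 were lower and 2 higher at Day 3, and 7 lower and 2 higher at Day 28, with SOS2 at -1.83 ± 0.10 and -1.36 ± 0.10 and GAB1 at 0.97 ± 0.13 and 0.71 ± 0.13. Of 10 genes from RAF to ERK and its RSK targets, 5 were lower and 3 higher on each day. Over all genes tested, 37.8% were called lower and 40.1% higher at Day 3, and 34.8% lower and 38.5% higher at Day 28. MAPK3, which encodes ERK1, averaged 186 CPM at Day 3 and 103 CPM at Day 28, against 56.3 CPM in the monolayer. BRAF fell by 2.02 ± 0.26 and 1.57 ± 0.26 and MAP2K1, which encodes MEK1, by 1.41 ± 0.06 and 1.54 ± 0.06 on the log2 scale. Of 8 p38 and JNK pathway genes, 4 were lower and 1 higher at Day 3, and 5 lower and 2 higher at Day 28, with MAPK8, which encodes JNK1, at -1.70 ± 0.06 and -1.48 ± 0.06. The median log2 fold changes at Days 3 and 28 were -0.32 and -0.50 for the adaptors and RAS, -0.10 and -0.17 for RAF to ERK, and -0.34 and -0.77 for p38 and JNK. Kinase activity and phosphorylation were not measured.

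**Figure D4:**
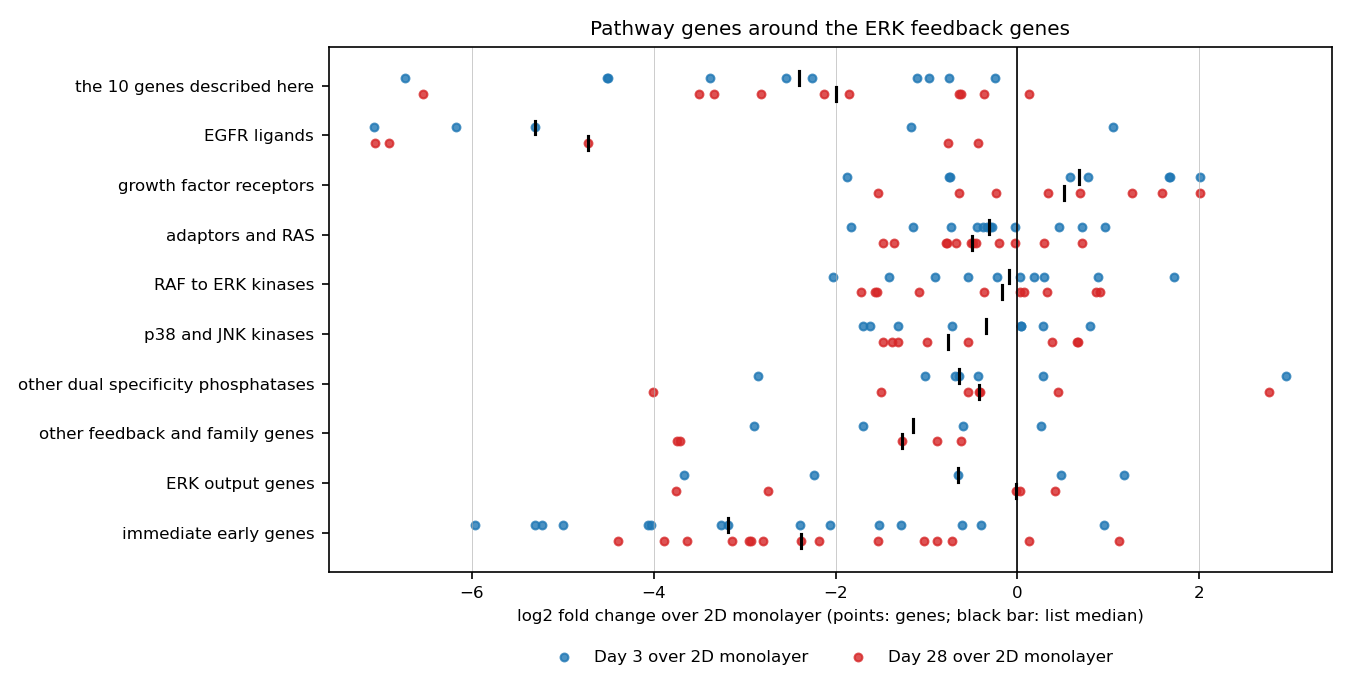
Log2 fold change over the 2D monolayer (x axis, edgeR) for each tested gene of the lists around the ERK pathway (rows) at Day 3 (blue) and Day 28 (red), with the list median as a black bar; genes with at most 3 counts in every library of a group plotted are left out. The 10 genes described here have medians of -2.40 and -1.99, and immediate early genes and EGFR ligands also lie mostly below 0.

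Of 5 genes often used as ERK output, 3 were lower and 2 higher at Day 3, and 2 lower and 1 higher at Day 28, with medians of -0.66 and -0.01. FOSL1, an AP-1 subunit stabilized and induced by ERK, read 27.6, 24.3 and 26.6 CPM at Day 3 and 24.4, 25.2 and 24.1 CPM at Day 28, against 338, 341 and 319 CPM in the monolayer. EPHA2 averaged 28.8 and 20.3 CPM, against 136 CPM. The ETS factor ETV4 was higher on both days, at 0.48 ± 0.06 and 0.41 ± 0.07, whereas ETV5 was lower at Day 3, at -0.66 ± 0.08, and was not called at Day 28, at -0.01 ± 0.08. CCND1 rose by 1.17 ± 0.21 at Day 3 and read 0.03 ± 0.22 at Day 28 (edgeR adjusted p = 0.918).

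Of 15 immediate early genes tested, 12 were lower and 1 higher at Day 3, and 13 lower and none higher at Day 28. FOSB passed the filter on low counts through its monolayer libraries alone, with at most 12 counts in a spheroid library. Their median log2 fold change was -3.18 at Day 3 and -2.38 at Day 28. EGR1 averaged 2.02 CPM at Day 3 and 15.5 CPM at Day 28, against 80.5 CPM in the monolayer, and ATF3 averaged 0.139 and 1.01 CPM, against 9.17 CPM. BTG2 was the gene that rose at Day 3, at 0.95 ± 0.20, and at Day 28 it was lower, at -0.72 ± 0.22. Of the heat shock and stress genes, 5 of 6 were lower than in the monolayer on each of these days, and HSPB1 was higher at Day 3. DDIT3 averaged 14.2 CPM at Day 3 and 118 CPM at Day 28, against 270.1 CPM in the monolayer. HSPA1A and HSPA1B, both lower, have near-identical sequences, so their single values are uncertain. Proliferation genes moved the other way, with 6 of 6 higher on each day, and MKI67 averaged 159 CPM at Day 3, against 3.31 CPM in the monolayer. Among these, PLK1 passed the filter on low counts through its spheroid libraries alone, with at most 12 counts in a monolayer library. From Day 10 to Day 14, the interval in which 5 of the 10 genes rose, 6 of 6 proliferation genes fell and 8 of 15 immediate early genes rose, with 2 lower. Of the 6 heat shock and stress genes, 1 rose and 3 fell in that interval. Over all genes tested, 24% were called higher and 24.3% lower between these days. The part of the stress and proliferation genes in the levels of the 10 genes was not tested.

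Across the 21 libraries, the genes most like each of the 10 by Pearson correlation of log2 CPM were sought among tested genes that averaged 10 CPM or more. The step between monolayer and spheroids enters every such r, so r is given also over the 18 spheroid libraries alone. DEGS1 was most like DUSP1, at r = 0.99 and 0.89 over spheroids, followed by CCDC9 and SBDS, with 0.87 and 0.91 over spheroids. TIMP1 and FOSL1 were most like DUSP5, each at 0.99, with 0.78 and 0.77 over spheroids, followed by ITPRIP, with 0.76 over spheroids. L1CAM, GRB10 and DLC1 were most like PHLDA1, each at 0.99 and at 0.92 to 0.93 over spheroids. STAM2, CPEB4 and ITPRIP were most like SPRY4, each at 0.98 and at 0.88 to 0.93 over spheroids.

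GGA1, SLC15A4 and CDYL were most like DUSP4, each at 0.97, with 0.78 to 0.82 over spheroids. CTSB, DAGLB and FOXA3 were most like DUSP6, each at 0.92, with 0.77 to 0.84 over spheroids. KANSL3, PRRC2B and RFFL were most like DUSP10, at 0.93 to 0.94, with 0.76 to 0.79 over spheroids. For SPRED1 these were ANKRD28, FCF1 and RBM42, at 0.93 to 0.94, with 0.86 to 0.89 over spheroids. For SPRED2 they were TRIM33, TNFRSF10B and EHBP1, each at 0.98, with 0.94 over spheroids. SPRY2, whose monolayer and spheroid libraries overlapped, had MATR3 and RPS27A among the genes most like it, at 0.87 and 0.86 over all libraries and 0.87 and 0.88 over spheroids. These coefficients describe the same libraries that gave the levels and say nothing of shared control.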

How the data were processed

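Per the labels' protocols, total RNA was isolated with an RNeasy kit and made into TempO-Seq libraries from equal inputs. What the authors deposited is a single table with 1 row per gene symbol and raw counts for the 21 libraries. GRCh38.p13, STAR 2.7.10b, fastp 0.23.2, bcl2fastq 2.20.422 and DESeq2 1.38.0 appear in the submitters' processing notes, with no role or order. The sources used here do not give how several oligo pairs of 1 gene were combined.

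Columns were matched to libraries by the sample descriptions. Of 19683 symbols, 12345 passed filterByExpr with its minimum count of 10; the 7338 removed held 0.0108% of the counts. After TMM scaling, 1 robust quasi-likelihood model by group took in all libraries (edgeR 4.0.16 under R 4.3.3); the procedure was first tested on simulated counts. Spheroid days were compared with the monolayer and with the preceding day sampled, Day 28 also with Day 3, and an F test covered the spheroid days. Alternatives included limma 3.58.1 and DESeq2 1.42.0. An SE is the absolute log2 fold change over the square root of F. A 95% interval is the log2 fold change plus and minus the SE times a normal quantile. It leaves out the degrees of freedom of the F test, so it is narrower than an interval matched to that test. For likeness, CPM were put on a log2 scale after a prior count of 2 was added.

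The 10 genes, the 13 lists of 119 related genes and the tests were chosen with earlier results of these data known. The text names all 10 genes, up to 2 called genes of a list in its majority direction and 1 in the other at Days 3 and 28, and 3 genes by likeness, of which 1 is not reported here; others were chosen after their values were seen. Promoter windows came from RefSeq. The main model did not pair libraries by replicate number. Of 63 same-numbered pairs, 0 had a correlation of deviations over 0.1, and the highest was 0.0991. Pairs with different numbers were not set beside them, so this check cannot exclude pairing.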

Additional observations from a re-analysis of the deposited data

Results flagged for a closer look

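The difference from the monolayer was not the same at Day 28 as at Day 3 in 7 of the 10 genes, by the direct edgeR test of Day 28 against Day 3, in which the monolayer cancels out. In each gene but SPRY2 both days were called lower than the monolayer, and the fall was smaller at Day 28. The difference in log2 fold change was 1.16 for DUSP1 and 1.00 for DUSP4. It was 0.69 for SPRY4, 0.55 for PHLDA1 and 0.46 for SPRED2. For SPRY2, which was called against the monolayer on neither day, it was 0.38, and for DUSP6 it was 0.35. All 3 Day 28 libraries lay above all 3 Day 3 libraries in these genes except DUSP6. Over all genes tested 29.5% were called higher and 30.2% lower between these days.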

How the results depend on the processing

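Each result was recomputed under 29 alternatives: other scalings and filters, DESeq2, limma-trend, a replicate block, the compared groups alone, and each of 21 libraries left out. Of 725 recomputed counts of called genes 716 stayed within 1.5 times the original, and of 3770 single-gene results 3688 kept their side of the threshold, 38 lost a call, 44 gained one and 0 reversed. Against the monolayer 55 of 60 pairs of gene and day had the same call in all alternatives; the others were SPRED1 at Days 14 and 28 and SPRY2 at Days 3, 7 and 28. Scaled by total counts alone, 1 gene was higher at Day 28 than in the monolayer (0 otherwise), the median of all genes against the monolayer lay at 0.19 to 0.30 in place of 0.05 to 0.09, and calls over all genes were 5697 higher and 3919 lower at Day 3 (4955 and 4672 by TMM), and 5661 and 3428 at Day 28 (4756 and 4302). Without the filter on low counts 1 gene, DUSP5, was lower at Day 7 than at Day 3 (0 otherwise), and DUSP5 was called between each day and the next one sampled. With 1 library left out, 0 to 1 genes were higher at Day 7 than at Day 3, 1 to 2 lower and 1 to 3 higher at Day 10 than at Day 7. SPRY2 at Day 3 was called in 7 of 21 such fits (edgeR adjusted p 0.0313 to 0.225).

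The replicate block, which treats same-numbered libraries as matched, moved no count of the 10 genes past 1.5 times. SPRED1 at Day 14 then had edgeR adjusted p = 0.0501 and DUSP5 between Days 21 and 14 had 0.0412. The cause of these shifts was not tested. Depth limits the spheroid values of DUSP10, DUSP4 and DUSP5 most, with as few as 14, 30 and 43 counts in a library.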
